A study of Mus musculus with 6 samples.

Results

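Apolipoproteins and the receptors that bind them were described in cell cultures labelled as primary endothelial cells of the stria vascularis, the vascularised epithelium of the cochlear lateral wall. Per the study's methods, the dissected tissue also held the spiral ligament. The genes were taken by name and comprised the ligands *Apoe*, *Apod* and *Reln*, the receptors *Lrp1*, *Vldlr*, *Lrp8* and *Sorl1*, the receptor chaperone *Lrpap1* and the adaptor *Dab2*. All 9 were present among the 24421 genes of the count table, and 8 of them were among the 13479 genes with enough reads to be tested. The study sequenced RNA from 3 *Nhe6*-knockout and 3 wildtype cultures, 1 library each. Per the study's methods each culture was pooled from at least 6 mice on postnatal days 10 to 12, so a single animal was never measured. The knockout mice carried a targeted disruption of *Nhe6* in the whole animal. The wildtype mice carried no such allele, and neither group was treated. The labels give both groups a C57BL/6N background, whereas the methods name C57BL/6J.

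Apolipoproteins are secreted proteins that carry lipids, and receptors of the low-density lipoprotein (LDL) receptor family take up these particles by endocytosis and release them in acidified endosomes. The same family includes signalling receptors, since VLDLR and the apolipoprotein E receptor encoded by *Lrp8* bind reelin. Brain endothelial cells are known to use LRP1 in transport across the barrier between blood and tissue.

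The gene counts of a library summed to between 25587097 and 29126232 reads. *Nnt*, which is disrupted in C57BL/6J but not in C57BL/6N mice, was lower in *Nhe6*-knockout cells (1224 to 1392 against 3553 to 4512 normalized counts, which are read counts scaled to the mean library size, adjusted p = 0.0226), so substrain and genotype cannot be told apart. Wildtype replicate 2 stood apart from the other libraries, at 112 on the first principal component against -30.4 to -6.49. Each of the genes tested, and each pathway gene whose value moved by over 1.5 times without it, is therefore given with and without that library. In wildtype replicate 2 the Y-linked genes *Ddx3y* (272 against 990 to 2370) and *Eif2s3y* (103 against 603 to 880) were below all other libraries. The X-linked *Xist* ranged from 40351 to 45668 in *Nhe6*-knockout and from 17094 to 36286 in wildtype libraries. The methods do not name the sex of the mice, and its part in the differences was not tested. *Nhe6*-knockout replicates 1 and 2 were much closer to each other than any other pair of one genotype, with a chi-square per gene of 4.91 against 90.1 to 398, which was still above sampling noise. Whether these 2 libraries came from independent cultures was not tested. The SDs and p-values count every library as an independent culture. If these 2 are not independent, the SDs and p-values may understate the spread between *Nhe6*-knockout cultures. Of 13 endothelial marker genes, *Cldn5* was at 0 in all 6 libraries, *Tie1* was at 0 in 5, and *Pecam1* had at most 7.82 normalized counts. *Emcn* ranged from 409 to 18385, and *Cdh5*, the gene of VE-cadherin, from 179 to 232 in *Nhe6*-knockout and from 2508 to 5198 in wildtype libraries. *Flt1* was also lower in *Nhe6*-knockout libraries (378 to 578 against 920 to 3174), and *Vwf* was higher (5.68 to 23.2 against 0 to 3.91). *Eng* ranged from 866 to 5079, *Cd34* from 793 to 4864 and *Tek* from 189 to 1006. *Kdr*, *Erg* and *Esam* had at most 70.1, 15.5 and 237. The 13 markers summed to 16660 to 25738.5 in *Nhe6*-knockout and 15843 to 23441 in wildtype libraries. *Emcn* was the largest part of this sum in every library except wildtype replicate 2, where it was 409 and *Cdh5* was the largest. The sum therefore does not show the lower *Cdh5* of the *Nhe6*-knockout libraries. The summed level of 9 fibroblast markers was 275846 to 286528 in *Nhe6*-knockout and 255115 to 395404 in wildtype libraries. In RNA of whole cultures, fewer cells of a type and less RNA per cell cannot be told apart.

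None of the 8 genes tested passed the threshold of 0.05 on the adjusted p in edgeR's test, where 0.0668% of all genes did. Only *Lrp1* had an unadjusted p under 0.05, against 11.8% of all genes. *Lrp1* was the single gene of the 8 that was higher in every *Nhe6*-knockout than in every wildtype library, an arrangement found in 10.3% of all genes. *Lrp8* was the single gene that was lower in every *Nhe6*-knockout library, as were 9.57% of all genes. The log2 fold changes had a median of -0.31, against -0.02 over all genes tested, and 3 of the 8 were above 0. These shares did not set the 8 genes apart from the table as a whole, and the values of each gene are described below by role.

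**Figure D1:**
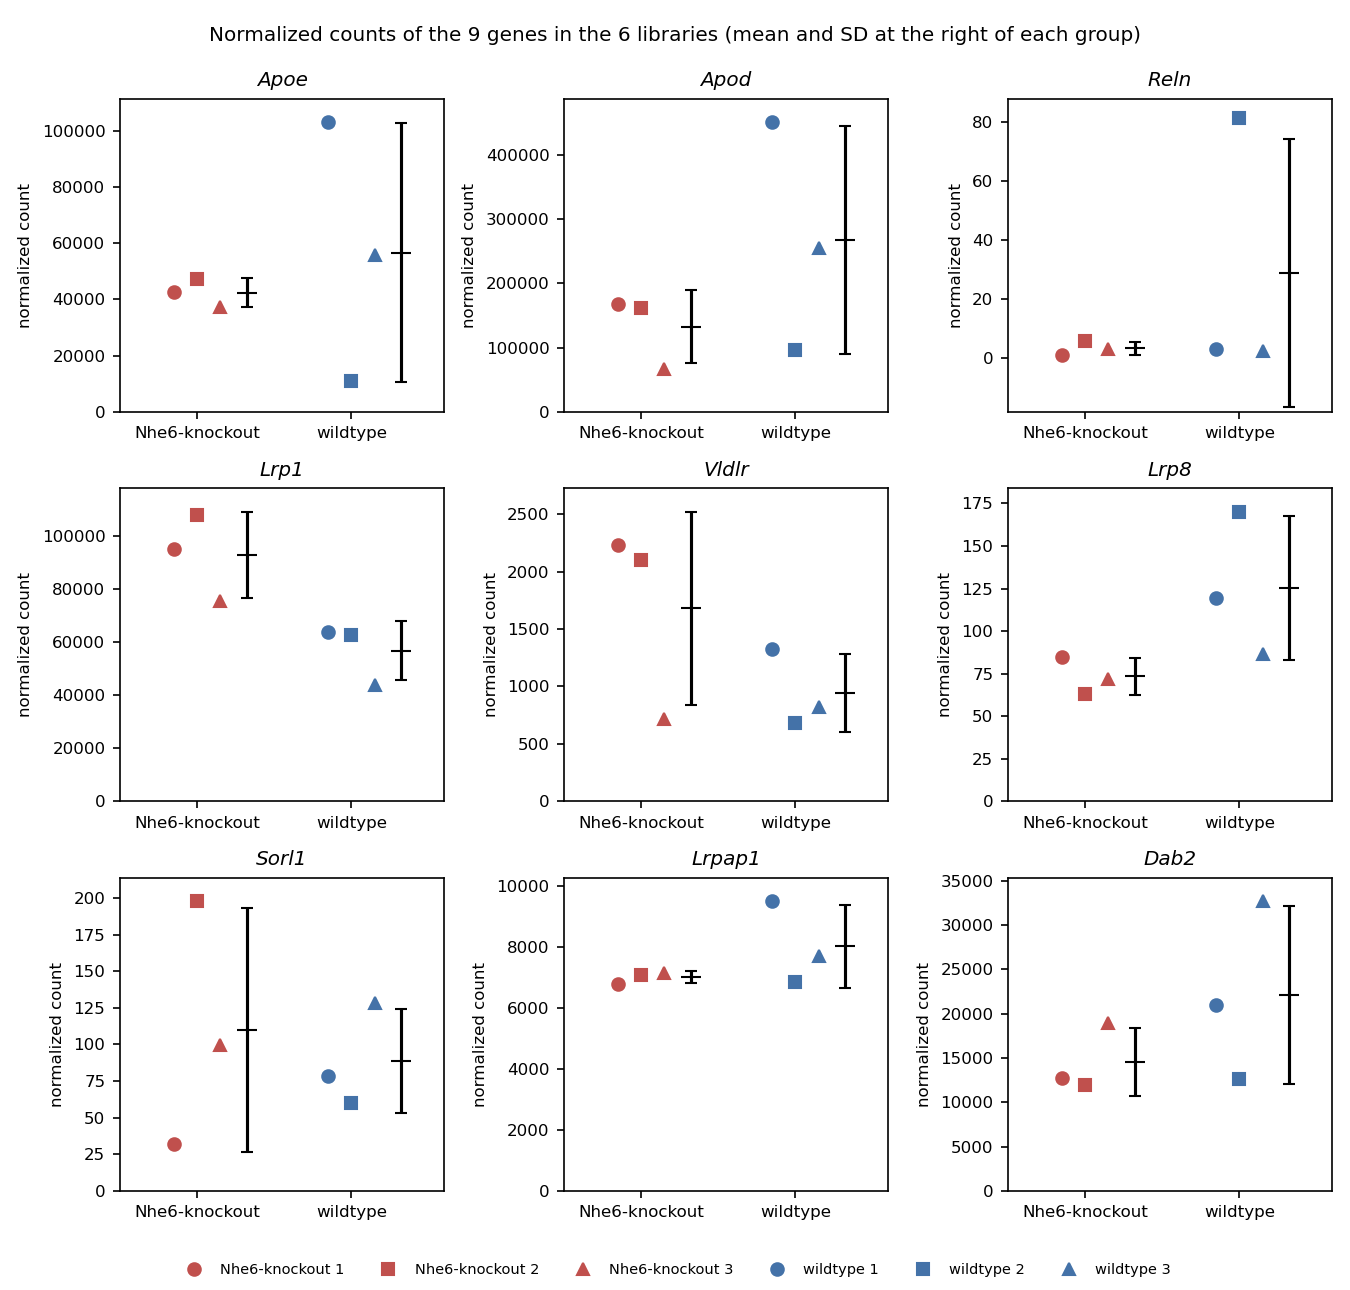
Normalized read counts of the 9 genes, with 1 panel per gene, the 2 genotypes on the x axis, 1 point per library and the mean with its SD at the right of each group (n = 3). Each panel has its own linear scale. The *Nhe6*-knockout points lie above all wildtype points for *Lrp1* and below them for *Lrp8*, and wildtype replicate 2 is the lowest point of *Apoe* and the highest of *Reln*.

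*Apoe* encodes apolipoprotein E, a ligand for most receptors of the family, and lies at chr7:19696109-19699188 on the minus strand (GRCm38). *Nhe6*-knockout replicates 1, 2 and 3 had 42664, 47409 and 37151 normalized counts of *Apoe*. Wildtype replicates 1, 2 and 3 had 103175, 10909 and 55871. The *Nhe6*-knockout libraries were close to each other and lay inside the wildtype range, which spanned the highest and the lowest value of the 6. The means were 42408 ± 5134 and 56652 ± 46138 (SD, n = 3), and the log2 fold change was -0.42 with an SE of 0.70 (adjusted p = 0.867). Without wildtype replicate 2 the log2 fold change was -0.91 (unadjusted p = 0.0162, adjusted p = 0.149), and without wildtype replicate 1 it was 0.34. The direction of the *Apoe* difference therefore depended on which wildtype culture was counted.

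Macrophages are known to express *Apoe* strongly. Per the study's methods, cultured cells had been purified by fluorescence-activated sorting, for which no marker is named there. In the libraries, 13 macrophage markers were summed. The sums were 3587, 3977 and 1555 in *Nhe6*-knockout replicates 1, 2 and 3, and 3768, 144 and 1952 in wildtype replicates 1, 2 and 3. Wildtype replicate 2, the library lowest in *Apoe*, was also the lowest in this sum, and 8 of the 13 markers were at 0 there, among them *Adgre1*, *Ptprc*, *C1qa*, *C1qb* and *C1qc*. In each of the other 5 libraries 1 marker was at 0. *Nhe6*-knockout replicate 3 was the next lowest in both, but the order differed among the remaining libraries. *Nhe6*-knockout replicate 2 had the highest sum, and wildtype replicate 1 the highest *Apoe* level. Wildtype replicate 3 had a lower sum but more *Apoe* than *Nhe6*-knockout replicates 1 and 2. Wildtype replicate 2 was also the lowest in summed melanocyte markers (288 against 405 to 1171) and strial epithelium markers (5.16 against 60.6 to 1296). The same held for the endothelial sum, while its fibroblast, mural and glia sums were the highest of the 6 libraries. The part of macrophages or of any other cell type in the *Apoe* level was not tested.

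*Apod* encodes apolipoprotein D, a lipocalin that carries small hydrophobic molecules, and lies at chr16:31296192-31314808 on the minus strand. The normalized count of *Apod* was 167764, 162169 and 66633 in *Nhe6*-knockout replicates 1, 2 and 3. It was 450834, 96129 and 254189 in wildtype replicates 1, 2 and 3. *Apod* was among the most abundant transcripts of these cultures, with the highest count of all genes in 3 of the 6 libraries and 0.248% to 1.62% of all reads counted on genes. Wildtype replicate 2 and *Nhe6*-knockout replicate 3 were low within their groups, and the groups overlapped. The means were 132188 ± 56842 and 267050 ± 177702 (SD, n = 3), with a log2 fold change of -1.01 (SE 0.64, adjusted p = 0.606). Without wildtype replicate 2 the log2 fold change was -1.42 (unadjusted p = 0.0191, adjusted p = 0.161). It was -0.41 without wildtype replicate 1 (adjusted p = 0.796) and -0.70 without *Nhe6*-knockout replicate 3 (adjusted p = 0.800).

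*Reln* encodes reelin, the extracellular ligand of VLDLR and of the *Lrp8* product, and lies at chr5:21884454-22344702 on the minus strand. It had 1, 6 and 3 reads in the *Nhe6*-knockout libraries and 3, 79 and 2 in the wildtype libraries, and was left out of the test for low counts. Only wildtype replicate 2 held more than 6 reads, so that *Reln* was barely detected in the other 5 cultures, and no difference was detectable at this depth (adjusted p = 0.550 in an alternative fit that kept genes of at least 1 count).

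*Lrp1* encodes a large endocytic receptor for apolipoprotein E, proteases and matrix proteins, and lies at chr10:127538161-127621148 on the minus strand. For *Lrp1*, *Nhe6*-knockout replicates 1, 2 and 3 gave 95336, 108054 and 75699 normalized counts. The wildtype replicates 1, 2 and 3 gave 63750.1, 62610.1 and 43910.3. The lowest *Nhe6*-knockout library was above the highest wildtype library. The means were 93029.5 ± 16301 and 56757 ± 11140 (SD, n = 3), a 1.64-fold difference. This corresponds to a log2 fold change of 0.71 with an SE of 0.26, and the difference did not pass the threshold after adjustment (unadjusted p = 0.0315, adjusted p = 0.363). It was 0.78 without wildtype replicate 2 (adjusted p = 0.155) and between 0.55 and 0.83 when any single culture was left out. The adjusted p of DESeq2's Wald test was 0.0624, and that of the 14 alternatives ranged from 0.0624 to 0.937.

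The summed level of 14 cell cycle genes was, like *Lrp1*, higher in every *Nhe6*-knockout than in every wildtype library. Of all single genes 10.3% had this arrangement. The sum was 14315, 14258 and 7985 in *Nhe6*-knockout replicates 1, 2 and 3, and 3247, 3832 and 2557 in wildtype replicates 1, 2 and 3. Within the genotypes the order differed, since *Lrp1* was highest in *Nhe6*-knockout replicate 2 and wildtype replicate 1. The 14 genes had a median log2 fold change of 2.57, with 0 past the adjusted threshold in edgeR's test. In that test 13 had an unadjusted p under 0.05, against 11.8% of all genes. In DESeq2 11 were past the threshold, where 4.69% of all genes were. The part of cell division in the *Lrp1* level was not tested.

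*Vldlr* encodes the very-low-density lipoprotein receptor, which binds apolipoprotein E and reelin, and lies at chr19:27216484-27254231 on the plus strand. *Nhe6*-knockout replicates 1, 2 and 3 had 2230.4, 2099 and 714 normalized counts of *Vldlr*. Wildtype replicates 1, 2 and 3 had 1322, 679.7 and 823. The first 2 *Nhe6*-knockout libraries were above all wildtype libraries, while replicate 3 lay between wildtype replicates 2 and 3. The fit gave *Vldlr* a log2 fold change of 0.84 (SE 0.47, adjusted p = 0.549), and 0.64 without wildtype replicate 2 (adjusted p = 0.540).

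*Lrp8* encodes the apolipoprotein E receptor that shares reelin as a ligand with VLDLR, and lies at chr4:107802261-107876840 on the plus strand. The normalized count of *Lrp8* was 84.9, 63.2 and 71.9 in *Nhe6*-knockout replicates 1, 2 and 3. It was 119, 170.2 and 86.6 in wildtype replicates 1, 2 and 3. The groups did not overlap, but the closest libraries differed by a single read (80 reads in *Nhe6*-knockout replicate 1 and 81 in wildtype replicate 3). The log2 fold change was -0.77 (SE 0.33, unadjusted p = 0.0574, adjusted p = 0.439). It was -0.49 without wildtype replicate 2, the library with the highest level (adjusted p = 0.406).

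The 2 reelin receptors had fold changes of opposite sign, and their balance was compared as a ratio of reads within each library. This ratio rests on the same reads as the 2 fold changes and is not separate support for them. *Lrp8* reads per *Vldlr* read were 0.0381, 0.0301 and 0.101 in *Nhe6*-knockout replicates 1, 2 and 3, and 0.0902, 0.250 and 0.105 in wildtype replicates 1, 2 and 3. The ratios of the 2 groups overlapped, because *Nhe6*-knockout replicate 3 lay between wildtype replicates 1 and 3. On the log2 scale the mean was -4.36 ± 0.92 in *Nhe6*-knockout and -2.91 ± 0.79 in wildtype libraries (SD, n = 3), a difference of -1.46 (exact permutation test, two-sided, p = 0.2, where 0.1 is the smallest p that 3 against 3 allows). *Vldlr* thus had more reads than *Lrp8* in every library of both genotypes.

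*Sorl1* encodes SORLA, a sorting receptor that combines domains of the LDL receptor and sortilin families and directs cargo between the Golgi and endosomes, and lies at chr9:41964720-42124297 on the minus strand. For *Sorl1*, *Nhe6*-knockout replicates 1, 2 and 3 gave 31.8, 198 and 99.4 normalized counts. The wildtype replicates 1, 2 and 3 gave 78.2, 59.8 and 128. *Nhe6*-knockout replicates 1 and 2 were the lowest and the highest of the 6 libraries, and they enclosed the wildtype range. The fit gave *Sorl1* a log2 fold change of 0.31 (SE 0.66, adjusted p = 0.898), and it took values from -0.43 to 0.74 when single cultures were left out (0.085 without wildtype replicate 2).

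*Lrpap1* encodes the receptor-associated protein, a chaperone that keeps ligands off newly made receptors of the family in the endoplasmic reticulum, and lies at chr5:35091501-35105766 on the minus strand. *Nhe6*-knockout replicates 1, 2 and 3 had 6787, 7087 and 7159 normalized counts of *Lrpap1*. Wildtype replicates 1, 2 and 3 had 9512, 6849.98 and 7725. Its log2 fold change had the lowest SE of the 8 genes tested, the groups overlapped, and the means were 7011 ± 197 and 8029 ± 1357 (SD, n = 3). The log2 fold change was -0.20 (SE 0.16, adjusted p = 0.690), with -0.30 without wildtype replicate 2 and -0.061 without wildtype replicate 1.

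Since the chaperone serves LRP1, *Lrp1* reads were also set against *Lrpap1* reads. These are the reads already compared above for each gene, so the ratio is not separate support for the *Lrp1* difference. The ratio was 14.05, 15.2 and 10.6 in *Nhe6*-knockout replicates 1, 2 and 3, and 6.70, 9.14 and 5.68 in wildtype replicates 1, 2 and 3. Every *Nhe6*-knockout ratio was above every wildtype ratio. The log2 ratio was 3.72 ± 0.28 against 2.81 ± 0.35 (SD, n = 3), with a difference of 0.90 that remained between 0.75 and 1.09 without any single library (exact permutation test, two-sided, p = 0.1, the smallest that 3 against 3 allows).

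*Dab2* encodes an endocytic adaptor that links the tails of LDL receptor family members to clathrin, and lies at chr15:6299788-6440712 on the plus strand. The normalized count of *Dab2* was 12691, 11962 and 18946 in *Nhe6*-knockout replicates 1, 2 and 3. It was 20964, 12643 and 32709.8 in wildtype replicates 1, 2 and 3. Wildtype replicate 2 lay among the *Nhe6*-knockout libraries, and the remaining wildtype libraries lay above them. The fit gave *Dab2* a log2 fold change of -0.61 (SE 0.38, adjusted p = 0.600), and of -0.89 without wildtype replicate 2 (unadjusted p = 0.0191, adjusted p = 0.161). Without wildtype replicate 3, the library with the highest level, it was -0.22 (adjusted p = 0.810).

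In the fit without wildtype replicate 2, *Apoe*, *Apod*, *Lrp1* and *Dab2* had an unadjusted p under 0.05, which is 4 of the 8 genes against 19.5% of all genes in that fit. None of the 8 passed the adjusted threshold there, while 2.88% of all genes did. The median log2 fold change of the 8 genes was -0.40, against 0.00 over all genes.

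The levels of different genes were compared per length, as reads per kb of exon per 1000000 reads after TMM scaling. *Apod* was at 1862 ± 801 in *Nhe6*-knockout and 3762 ± 2503 in wildtype libraries, and *Apoe* was at 720.01 ± 87.2 and 962 ± 783 (SD, n = 3). *Lrp1* came next, at 191 ± 33.4 and 116 ± 22.8. *Apod* was above *Apoe* in all 6 libraries, and *Lrp1* took the place after them in 5, the exception being wildtype replicate 3, where *Dab2* was higher. *Dab2* was at 71.9 ± 19.0 and 109 ± 49.8, *Lrpap1* at 61.8 ± 1.74 and 70.8 ± 12.0, and *Vldlr* at 6.06 ± 3.03 and 3.39 ± 1.21. *Sorl1* was at 0.352 ± 0.268 and 0.285 ± 0.114, and *Lrp8* at 0.253 ± 0.0378 and 0.433 ± 0.145. *Vldlr* was next after these 5 genes and *Reln* last in every library, and the order of *Lrp8* and *Sorl1* varied between libraries. In *Nhe6*-knockout cells the ranges of *Dab2* and *Lrpap1* overlapped, as did those of *Sorl1* and *Lrp8*. In wildtype cells the same held for *Apod* and *Apoe*, for *Lrp1* and *Dab2*, for *Dab2* and *Lrpap1*, and for *Lrp8* and *Sorl1*.

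**Figure D2:**
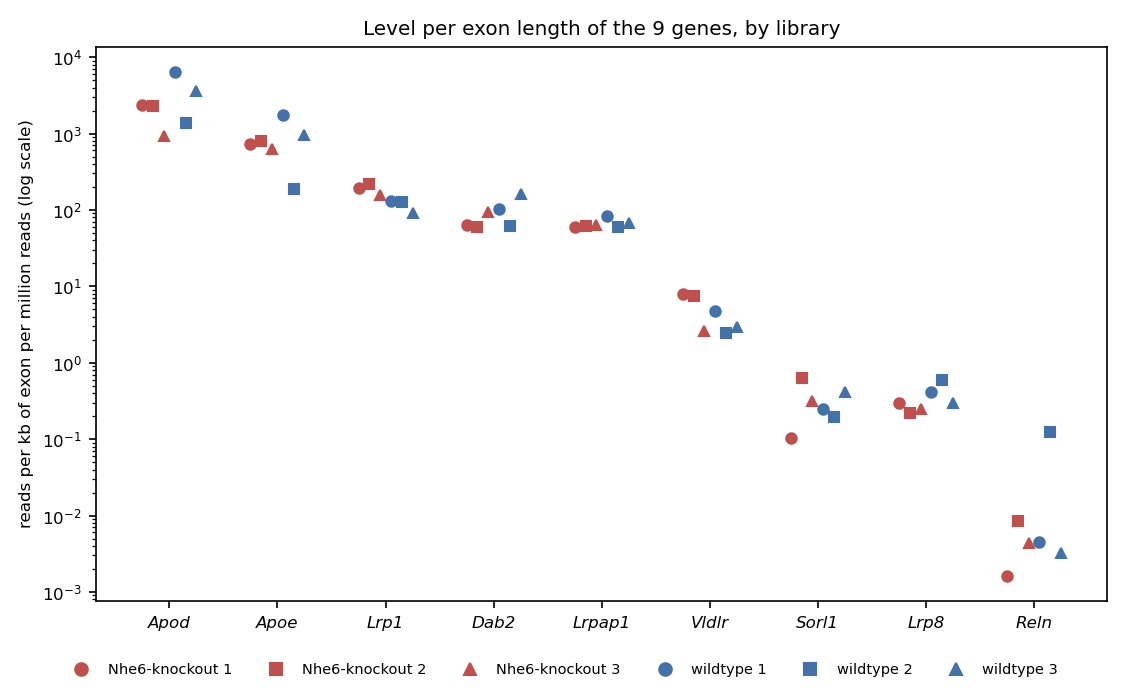
Level of the 9 genes in reads per kb of exon per 1000000 reads (log scale on the y axis), with 1 point per library. *Apod* and *Apoe* lie above the other genes in all 6 libraries, *Lrp1*, *Dab2* and *Lrpap1* form the next tier, and *Reln* is lowest.

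Promoter windows of 300 bases, from 250 before to 50 after the annotated start, were taken from RefSeq (GRCm38.p6), which held all 9 genes. The windows of the gene with the highest level (*Apod*), the gene without overlap between the genotypes and with the larger counts (*Lrp1*) and the gene with the lowest SE (*Lrpap1*) are shown, 5′ to 3′ on the strand of the gene, with GC boxes (GGGCGG on either strand) in capitals.

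Apod, chr16:31314759-31315058, minus strand: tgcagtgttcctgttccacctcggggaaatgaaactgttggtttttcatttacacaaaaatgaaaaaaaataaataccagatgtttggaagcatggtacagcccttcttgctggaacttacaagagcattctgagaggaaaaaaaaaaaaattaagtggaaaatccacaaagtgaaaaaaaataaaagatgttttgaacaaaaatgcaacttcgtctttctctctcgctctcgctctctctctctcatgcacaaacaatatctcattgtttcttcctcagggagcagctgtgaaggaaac

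Lrp1, chr10:127621099-127621398, minus strand: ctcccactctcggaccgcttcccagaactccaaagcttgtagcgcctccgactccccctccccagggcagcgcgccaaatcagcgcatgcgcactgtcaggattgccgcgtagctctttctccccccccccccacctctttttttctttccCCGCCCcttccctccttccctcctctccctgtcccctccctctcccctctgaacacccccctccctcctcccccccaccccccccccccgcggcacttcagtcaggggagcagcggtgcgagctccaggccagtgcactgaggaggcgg

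Lrpap1, chr5:35105650-35105949, minus strand: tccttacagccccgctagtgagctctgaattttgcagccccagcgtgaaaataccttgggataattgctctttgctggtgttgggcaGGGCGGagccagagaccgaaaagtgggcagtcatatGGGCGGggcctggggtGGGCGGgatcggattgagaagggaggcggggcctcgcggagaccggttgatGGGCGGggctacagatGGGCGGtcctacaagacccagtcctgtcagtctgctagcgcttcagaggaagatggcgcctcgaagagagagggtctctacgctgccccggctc

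The *Apod* window was 37.33% G and C and held no GC box, the *Lrp1* window was 67.67% G and C and held 1, and the *Lrpap1* window was 61.33% G and C and held 5. A GC box was found in 4 of the 9 windows (*Lrp1*, *Sorl1*, *Lrpap1* and *Reln*) and in 35.66% of 32851 promoters. A TATA box (TATAAA) and a CCAAT box (CCAAT), each searched on both strands, were in none of the 9 windows and in 13.62% and 37.41% of all promoters. These matches describe the letters of the windows and were not related to the levels.

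Genes of the same pathways were counted in 7 lists that together held 65 further genes, 49 of them tested. In edgeR's test 0 of the 49 passed the adjusted threshold, and 4 had an unadjusted p under 0.05 (3 higher and 1 lower), against 11.8% of all genes. DESeq2 called 2 of them (*Lpl* and *Lipg*), against 4.69% of all genes, and the fit without wildtype replicate 2 called *Lpl* and *Clu*, against 2.88%. The median log2 fold change was 0.01, and 25 of 49 were above 0. The groups did not overlap in 7 genes that were higher and 3 that were lower in *Nhe6*-knockout cells, against 10.3% and 9.57% of all genes, so these counts were near the background.

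The most separated of these genes were 2 lipases. *Lpl* encodes lipoprotein lipase, which hydrolyses the triglycerides of lipoproteins and also binds LRP1. The gene had 324, 299 and 232 normalized counts in *Nhe6*-knockout replicates 1, 2 and 3, and 49.9, 6.19 and 31.0 in wildtype replicates 1, 2 and 3. Every *Nhe6*-knockout library was above every wildtype library, and the means of 285 ± 47.6 and 29.0 ± 21.9 (SD, n = 3) differed 9.82-fold. Its log2 fold change was 3.29 (SE 0.67, unadjusted p = 0.00227), and the adjusted p was 0.120 with edgeR, 0.0226 without wildtype replicate 2 and 2.44e-05 with DESeq2, within a range of 2.44e-05 to 0.506 over the alternatives. *Lipg* encodes endothelial lipase, a phospholipase that acts on high-density lipoprotein. This gene had 49.9, 28.8 and 31.2 normalized counts in *Nhe6*-knockout replicates 1, 2 and 3, and 92.9, 231 and 352 in wildtype replicates 1, 2 and 3, again without overlap. Its log2 fold change was -2.62 (SE 0.55), and the adjusted p was 0.125 with edgeR, 0.0806 without wildtype replicate 2 and 2.33e-04 with DESeq2, within a range of 2.33e-04 to 0.537.

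Of 11 genes for lipases, lipid transfer and efflux, 9 were tested, with 5 above 0 and a median of 0.16. *Abcg1*, a cholesterol exporter named after its values were seen, had 13.8 to 27.9 normalized counts in *Nhe6*-knockout and 2.93 to 5.16 in wildtype libraries (adjusted p = 0.161). *Scarb1*, the receptor for high-density lipoprotein, had a log2 fold change of -0.66 that was 0.38 without wildtype replicate 2. *Pltp*, the phospholipid transfer protein, was at -0.49.

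Of 13 other apolipoprotein genes, only 4 had enough reads to be tested, and 2 of these were above 0. *Clu*, which encodes clusterin (apolipoprotein J), had 2386, 3559 and 4804 normalized counts in *Nhe6*-knockout replicates 1, 2 and 3, and 19483, 1237 and 13639 in wildtype replicates 1, 2 and 3. Wildtype replicate 2 was the lowest of the 6 libraries, as it was for *Apoe*, and the other wildtype libraries were the highest. The log2 fold change was -1.68 (SE 0.87, adjusted p = 0.516), and without wildtype replicate 2 it was -2.21 (adjusted p = 0.0325).

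Among 11 other receptors of the LDL receptor family, 10 were tested, 6 were above 0 and the median was 0.14. *Lrp2*, which encodes megalin, had 132, 530 and 442 normalized counts in *Nhe6*-knockout and 82.1, 70.1 and 282 in wildtype libraries (log2 fold change 1.35, SE 0.72, adjusted p = 0.528). The groups overlapped, since *Nhe6*-knockout replicate 1 lay below wildtype replicate 3. *Lrp12* was higher in every *Nhe6*-knockout library (log2 fold change 0.39, adjusted p = 0.439). *Lrp11* had a log2 fold change of -0.63 (adjusted p = 0.620) that was -0.029 without wildtype replicate 2, the library with the highest level. Of 4 sortilin receptors 3 were tested, with fold changes of 0.22 for *Sort1* (sortilin) and 0.24 for *Sorcs2* on the log2 scale, which were 0.00074 and -0.15 without wildtype replicate 2.

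Of 9 further adaptors and regulators, 7 were tested and 3 were above 0, with a median of -0.08. *Gulp1*, an engulfment adaptor that binds LRP1, had a log2 fold change of -0.98 (adjusted p = 0.460) that was -0.29 without wildtype replicate 2. *Apbb1* was at -0.70 and at -0.35 without that library. *Mylip*, a ubiquitin ligase for receptors of the family, was at 0.30 and at -0.053 without it. Of 8 genes of reelin signalling 7 were tested, with 3 above 0 and a median of -0.07, and *Nck2*, *Fyn*, *Src* and *Pafah1b1* lay between -0.29 and 0.37 on the log2 scale. Without wildtype replicate 2, *Src* moved from 0.13 to 0.31 and *Pafah1b1* from -0.29 to -0.17.

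Of 11 genes for further ligands of LRP1, 10 were tested and 5 were above 0, with a median of 0.02. *Mdk*, which encodes the growth factor midkine, had 688, 799 and 902 normalized counts in *Nhe6*-knockout and 473, 68.1 and 307 in wildtype libraries. It did not overlap between the genotypes (log2 fold change 1.49, SE 0.62, unadjusted p = 0.0502, adjusted p = 0.421), and the log2 fold change was 1.02 without wildtype replicate 2. *Thbs2*, a thrombospondin, was likewise higher in every *Nhe6*-knockout library (log2 fold change 0.88, adjusted p = 0.433, and 0.56 without wildtype replicate 2). *Thbs1*, the other thrombospondin named, had 6418, 6783 and 33577 normalized counts in *Nhe6*-knockout and 931, 77319 and 2818 in wildtype libraries. Its direction turned without wildtype replicate 2, with a log2 fold change of -0.79 in all 6 libraries and 3.05 without that library (adjusted p = 0.163).

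**Figure D3:**
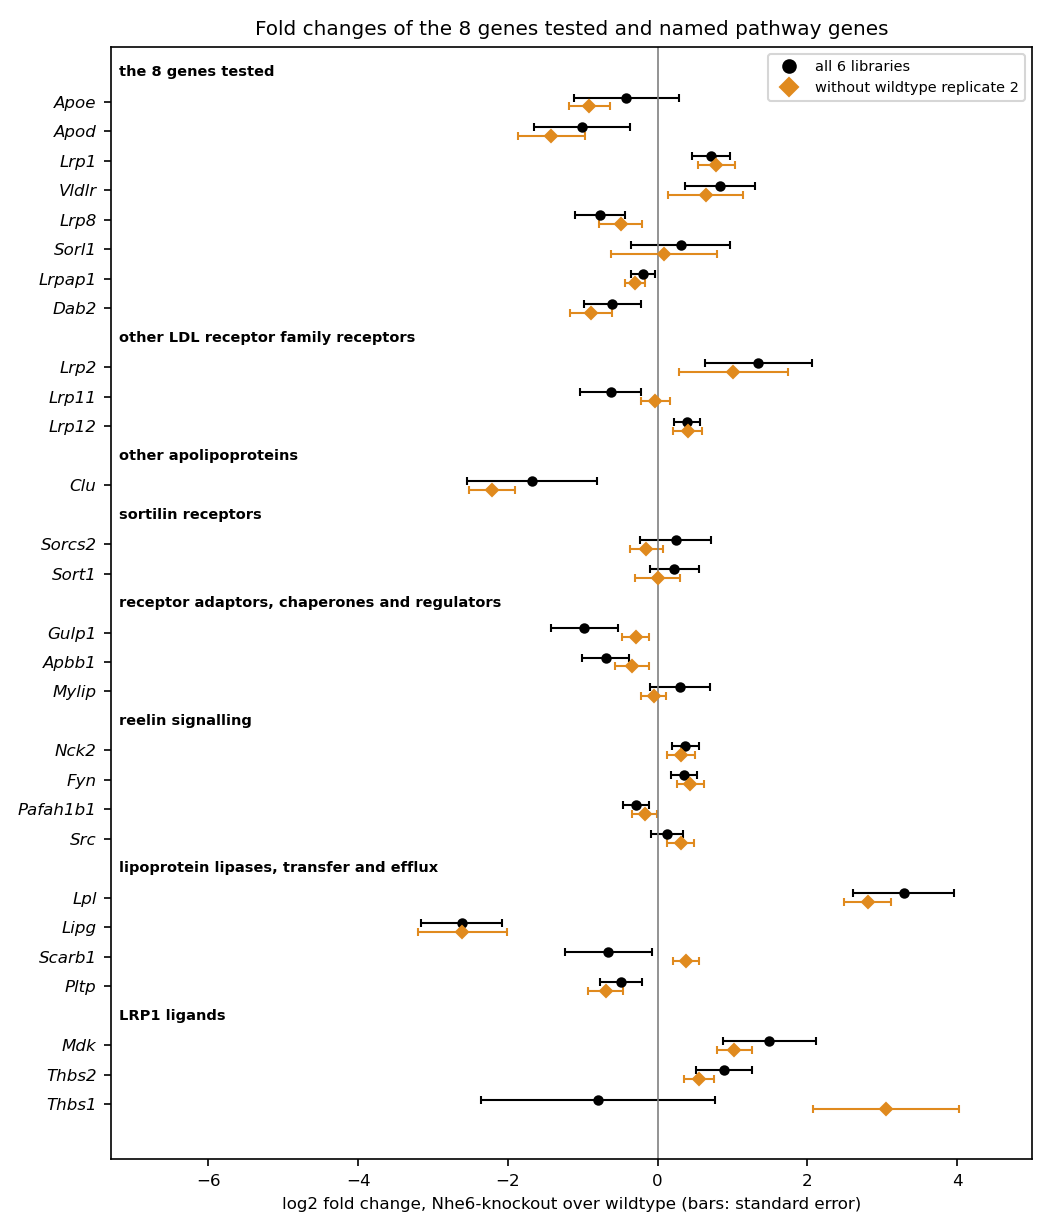
Log2 fold changes (*Nhe6*-knockout over wildtype) with their standard errors for the 8 genes tested and the named genes of the pathway lists, from all 6 libraries (black) and without wildtype replicate 2 (orange). *Lpl* lies furthest to the right in the fit of all 6 libraries and *Lipg* furthest to the left, and *Thbs1*, *Scarb1*, *Sorcs2* and *Mylip* change side without that library.

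**Figure D4:**
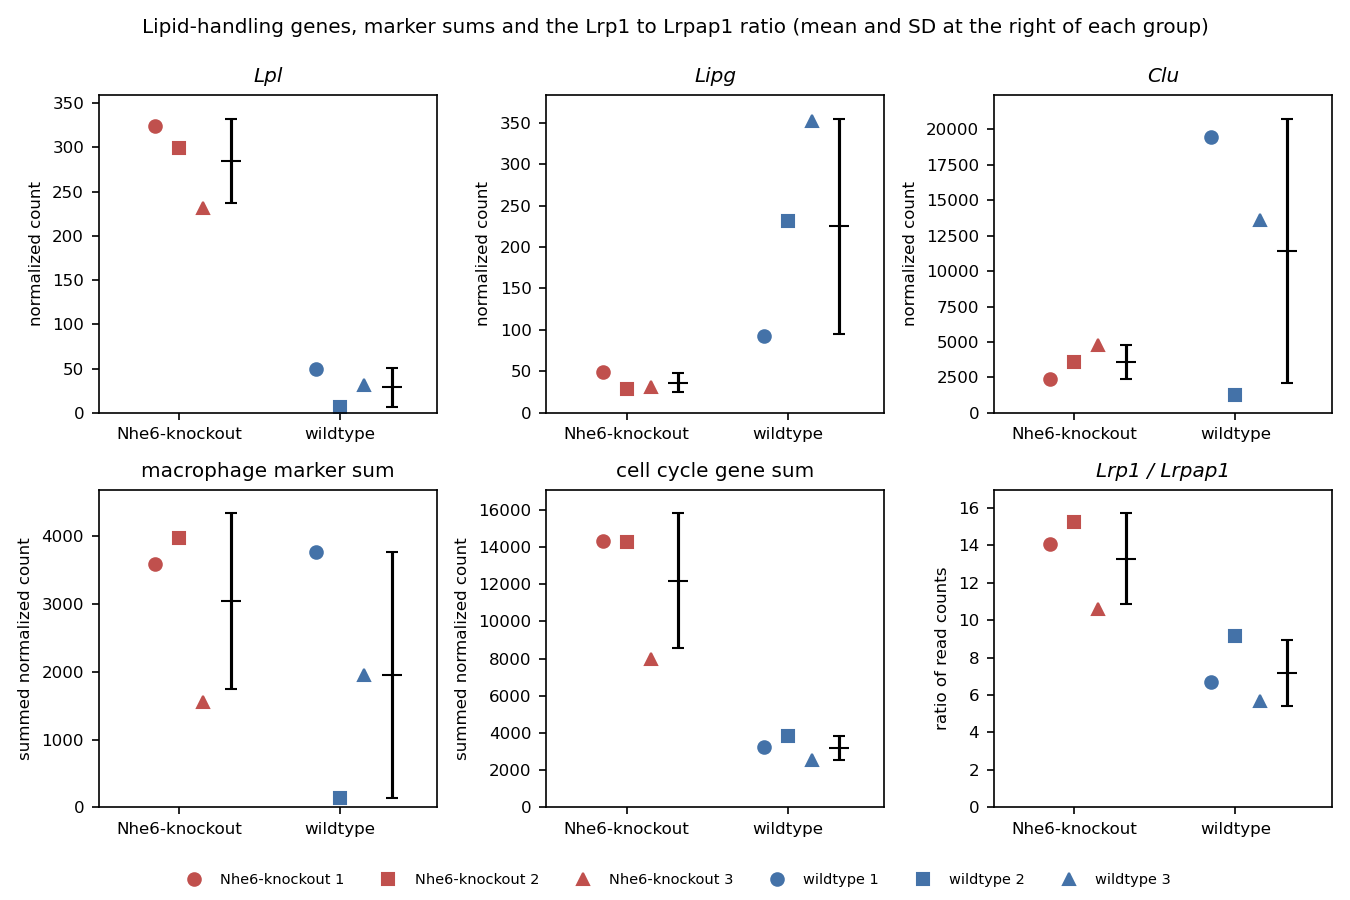
Normalized counts of *Lpl*, *Lipg* and *Clu*, summed normalized counts of 13 macrophage markers and 14 cell cycle genes, and the ratio of *Lrp1* to *Lrpap1* reads, with 1 point per library and the mean with its SD beside each group (n = 3). The *Nhe6*-knockout points are separate from the wildtype points for *Lpl*, *Lipg*, the cell cycle sum and the ratio, and wildtype replicate 2 is lowest for *Clu* and the macrophage sum.

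The genes with the profile most like each gene over the 6 libraries were taken by Pearson's r of log2 levels among 11126 genes. For *Apoe* they were *Snrk* (r = 0.999), *Nnat* (r = 0.997) and *Clk2* (r = 0.993), and for *Apod* they were *Ptgds* (r = 0.993), *Mettl3* (r = 0.992) and *2610507B11Rik* (r = 0.991). For *Lrp1* they were *Tubb6* (r = 0.994), *Parp1* (r = 0.992) and *Mfsd10* (r = 0.991), and the gene most like *Lrpap1* was *Pltp* (r = 0.993). The 6 points come from the same libraries for every gene, each name was picked as the highest r of all genes compared, and the names are a description only.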

How the data were processed

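Poly(A)-enriched, stranded libraries of 75 bp reads were made from 3 *Nhe6*-knockout and 3 wildtype cultures. The authors deposited raw read counts per gene symbol, without normalization. The submitters' processing notes name bcl2fastq 2.20.0.422, STAR 2.7.7a, HTSeq 0.13.5, DESeq2 1.26.0 and the build mm10. The 5 summary lines of the table (22.2% of reads) were left out. Genes were filtered with filterByExpr (minimum count 10), scaled by TMM and compared two-sided in edgeR 4.0.16 (R 4.3.3) by its quasi-likelihood test on genotype alone, with Benjamini-Hochberg adjustment over 13479 genes and a threshold of 0.05. The SE is the size of the log2 fold change divided by the square root of F. Positions and exon lengths came from GENCODE M21 (GRCm38), and the sequences from RefSeq. Alternatives used other scalings and filters, DESeq2 1.42.0, limma-voom (limma 3.58.1), a block for the replicate number, sums of *Nhe6*-knockout replicates 1 and 2, and each culture left out. The fits were also run on simulated counts that held no outlying library. That run was a check of the code and does not measure missed or wrong calls in these data.

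The genes, the lists and the alternatives were chosen with earlier results of these data known. Of each list, genes past the threshold and otherwise up to 4 with the largest fold changes (mean of at least 100 normalized counts) were named, and the targeted gene and some list members are not reported here. P-values measure the spread between libraries of cultures pooled from several mice, and count each library as an independent culture. For the closest pair of *Nhe6*-knockout libraries this was not tested, so the spread within that group may be understated.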

Additional observations from a re-analysis of the deposited data

How the results depend on the processing

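The 8 genes tested gave 0 calls in each of the 14 alternatives. In edgeR's test 9 of all genes passed the threshold. This number was 21 with genes of at least 1 count, 21 with genes of at least 10 counts in every library, 627 with DESeq2, 2 with the replicate block, 1 with *Nhe6*-knockout replicates 1 and 2 summed, and 0 to 395 when single cultures were left out, the highest without wildtype replicate 2. The cause was not tested. Of the pathway genes, 0 were called, 2 with DESeq2 and 0 to 2 without single cultures. The log2 fold change of *Apoe* was 0.092 with limma-voom, 0.011 with the replicate block and -0.91 to 0.34 without single cultures. That of *Thbs1* was 0.93 with limma-voom, 1.67 with the replicate block and -2.04 to 3.05 without single cultures. Leaving out single cultures also turned *Sorl1* (-0.43 to 0.74), *Mylip* (-0.053 to 0.68), *Scarb1* (-0.99 to 0.38), *Sorcs2* (-0.15 to 0.75), *Sort1* (-0.047 to 0.57) and *Src* (-0.068 to 0.31). Of 112 values of the 8 genes under the alternatives, 4 changed sign. The labels give replicate numbers but do not say whether these pair the cultures. Same-numbered libraries had correlations of 0.198, -0.204 and 0.0937 in their deviations from the group means. These cannot decide on pairing, since the deviations of the 3 libraries of a group sum to 0. With the ratios paired by replicate number, the smallest exact permutation p was 0.25. *Nnt* and *Wdfy1*, which differ between C57BL/6 substrains, kept their direction in every alternative but lost the adjusted threshold in several of them. *Lrp8*, *Sorl1* and *Reln* had few reads, which limits their precision.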

Other observations

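The balance of the 2 abundant apolipoproteins was looked at after the values of both had been seen, so it is given without a test. *Apod* reads per *Apoe* read were 3.93, 3.42 and 1.79 in *Nhe6*-knockout replicates 1, 2 and 3. In wildtype replicates 1, 2 and 3 they were 4.37, 8.81 and 4.55. Every *Nhe6*-knockout library had a lower ratio than every wildtype library, although each of the 2 genes alone overlapped between the genotypes, and wildtype replicate 2 had the highest ratio.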
